A study of Neurospora crassa OR74A with 2 samples.

Results

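The genes described here are those of Neurospora crassa, a filamentous ascomycete, whose transcripts were at least 4-fold lower in a Δpp-1 culture than in a wild-type culture. The study compared 1 library of the wild type, strain FGSC 2489, with 1 library of a strain deleted for pp-1. Both cultures were grown from conidia, the asexual spores, for 5 h at 30 °C. The labels name no other allele or agent, and do not say how many isolates or cultures stand behind each library. Levels are in RPKM, the reads on a gene divided by its length in kilobases and by the reads of the library in units of 1000000. Members were chosen by their levels in these same libraries. They had 10 RPKM or more in whichever library was higher, and a log2((Δpp-1 + 1)/(wild type + 1)), the log2 fold used throughout, of -2 or less. The limits were met by 113 genes. The rule sets aside 12 of them, pp-1 among them, which left 101 members of 8564 genes listed.

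PP-1 belongs to the Ste12 family of fungal transcription factors. In Saccharomyces cerevisiae, Ste12 is the target of the mating MAP kinase cascade and turns on genes for pheromone response and cell fusion. In N. crassa the matching kinase, MAK-2, signals between germinated conidia (germlings) as they grow towards each other and fuse, and strains without PP-1 or MAK-2 do not carry out this fusion.

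Where a pair of levels is given, the first is the wild type and the second Δpp-1. The deleted gene, pp-1 (NCU00340), had 83.8 and 1.69 RPKM. Multiplied by gene span, low levels piled up on multiples of a unit, in the wild type with 6, 10 and 7 genes at 2, 3 and 4 times it, and in Δpp-1 with 10, 10 and 1. In both libraries 0 genes were at 1 times the unit, so its worth in reads is not certain. Taken as 1 read, the unit gives 7.87 M reads for the wild type and 9.36 M for Δpp-1 (M, 1000000). If 1 read were 2 units, the totals would be 3.94 M and 4.68 M and every read number given here would be 50% of what is printed; the counting intervals already use that lower number. With 1 library per strain there is no replicate check, no test was possible, and all values describe these libraries. In whole cultures, fewer cells of a type and less RNA per cell cannot be told apart.

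The members covered a wide range of levels in the wild type and mostly low levels in Δpp-1. In the wild type they ran from 10.2 to 501 RPKM, with a median of 41.3 RPKM. In Δpp-1 they ran from 0 to 48.4 RPKM, with a median of 2.09 RPKM. Added up, they came to 7162 RPKM, or 1.26% of all RPKM in the wild type, and to 607 RPKM, or 0.140%, in Δpp-1. Their median log2 fold was -3.21. Over all 4831 genes that met the 10 RPKM limit it was -0.28. Of those 4831 genes, 2.34% were within the limits and 0.807% were as far in the other direction, and nothing is read from these shares, since this contrast chose the members.

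**Figure D1:**
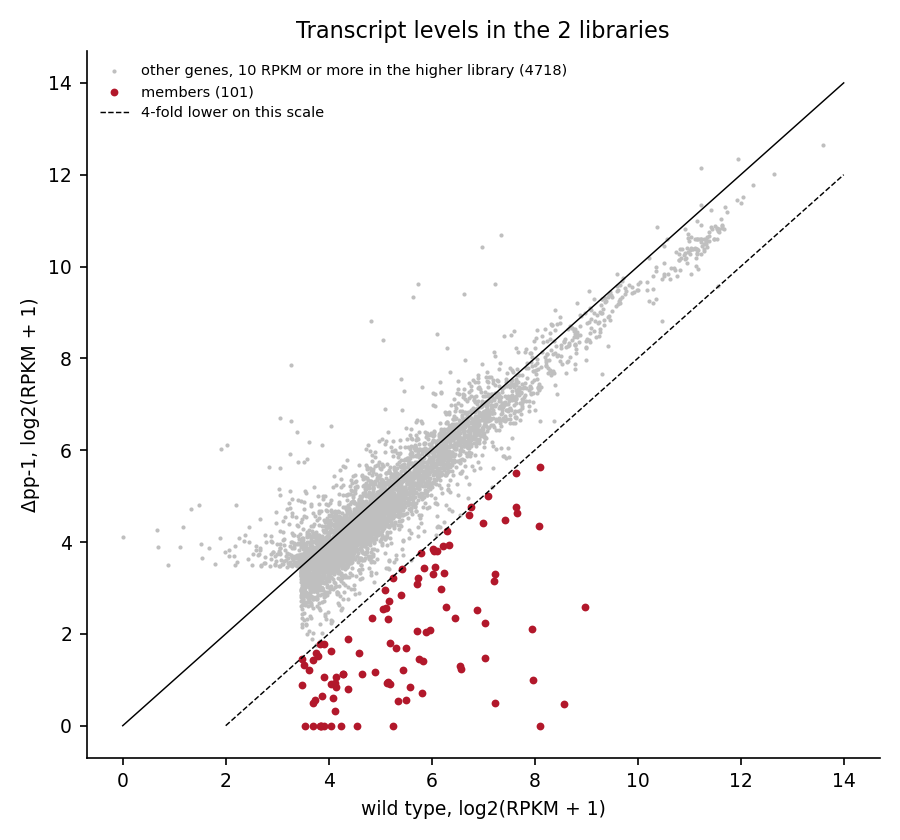
Level of each gene with at least 10 RPKM in one library or the other, as log2(RPKM + 1), in the wild type (horizontal axis) and Δpp-1 (vertical axis). Grey points are the 4718 genes outside the limits, red points the 101 members, the solid line marks equal levels and the dashed line 4-fold lower; the 12 genes set aside are not drawn. The members spread from the dashed line down to 0 at wild-type levels from 10.2 to 501 RPKM.

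Members differed among themselves in how much transcript was left. In Δpp-1, 11 were listed at 0 and 20 others stood below 1 RPKM, 38 from 1 to under 5 RPKM, 14 from 5 to under 10 RPKM, and 18 at 10 RPKM or more. Over all 4831 genes, 0.745% were under 1 RPKM in Δpp-1, the listed zeros included. Any gene of the 4831 that low in Δpp-1 meets the limits by construction, so this share is no background for the members. Among the 90 members above 0 in both libraries, the ratio of wild type to Δpp-1 ran from 4.12 to 976, with a median of 13.4. The log2 fold lay between -3 and -2 for 43 of these 90, between -4 and -3 for 25, between -5 and -4 for 13 and below -5 for 9. Ranked by level, 14 members were among the first 500 genes of the wild type and 0 in Δpp-1, where the highest, NCU09806, had rank 1340. Nothing is read from this fall in rank, since the rule chose members for a lower level in Δpp-1.

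**Figure D2:**
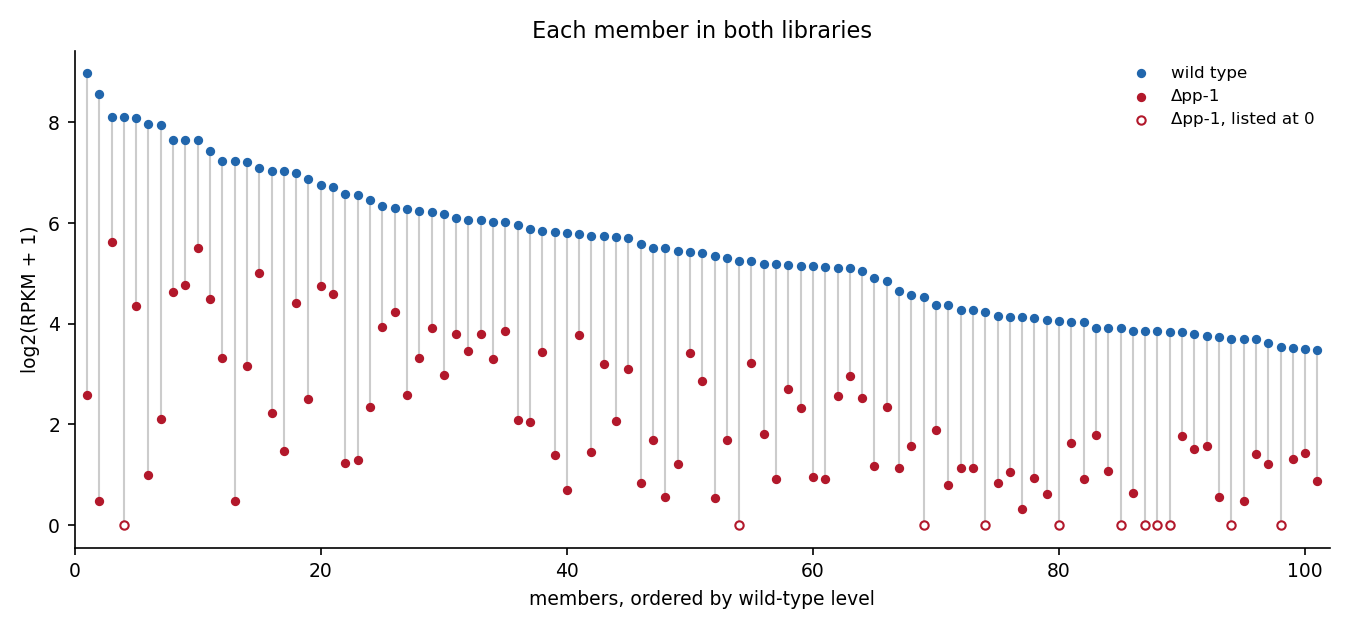
Level of the 101 members as log2(RPKM + 1), ordered from the highest to the lowest in the wild type. Blue points are the wild type, red points Δpp-1, open circles members listed at 0 in Δpp-1, and grey lines join the values of a gene. The Δpp-1 points scatter between 0 and 48.4 RPKM, with class medians of 0.862, 2.11, 7.90 and 20.3 RPKM from the lowest wild-type class (10 to under 20 RPKM) to that of 100 to under 200 RPKM, and 4.16 RPKM in the highest. The 4-fold limit lets members of higher wild-type level keep a higher Δpp-1 level, so part of the rise is built in.

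Symbols are given in the gene table for 4 of the 101 members, and no function is stated here for the others. The gene pls-1 (NCU07432) has the name of a tetraspanin, a small membrane protein, that in the rice blast fungus Magnaporthe is needed for appressoria to enter the host. It had 65.8 and 10.0 RPKM, a log2 fold of -2.60. The gene gh76-5 (NCU09937) belongs to the mannanase family that in yeast holds Dfg5 and Dcw1, which act in attaching glycoproteins to the cell wall. It had 126 and 20.3 RPKM, a log2 fold of -2.57. The other gene of a carbohydrate-active enzyme, gh6-3 (NCU07190), is of a family that holds fungal cellobiohydrolases and had a lower level, 13.2 and 2.41 RPKM. The xylose reductase gene xr (NCU08384), whose product makes the first step of xylose use, had 34.6 and 3.99 RPKM. The level left in Δpp-1 was 15.2% of the wild type for pls-1, 16.2% for gh76-5, 18.2% for gh6-3 and 11.5% for xr. In the same order, their ratios of wild type to Δpp-1 were 6.57, 6.19, 5.49 and 8.67. The median over the 90 members above 0 in Δpp-1 was 13.4. The largest ratio was that of NCU04496, which kept 0.102%.

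Of the 8 members at 200 RPKM or more in the wild type, 1 was listed at 0 in Δpp-1 and 2 more were under 1 RPKM there. The highest in the wild type, NCU09562, had 501 and 5.03 RPKM, rank 189 and rank 5380. NCU04496 had 377 and 0.386 RPKM. Its log2 ratio without the added 1 RPKM was -9.93, with a 95% counting interval from -12.2 to -8.34, and its Δpp-1 value rested on about 5.84 reads. NCU04527 had 249 and 0.983 RPKM, and NCU11172 had 246 and 3.30 RPKM. In contrast, NCU09806 had 274 and 48.4 RPKM, NCU04122 had 269 and 19.4 RPKM, and NCU03960 had 200.2 and 23.8 RPKM. These 7 genes kept from 0.102% (NCU04496) to 17.6% (NCU09806) of their level, and the eighth, NCU00995, is described with the listed zeros.

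Members from 100 to under 200 RPKM in the wild type numbered 13, and their Δpp-1 levels fell on either side of a gap between 8.94 and 20.3 RPKM. Below the gap were 6 genes. NCU07802 had 148 and 0.405 RPKM, a log2 fold of -6.73. NCU01697 had 129 and 1.78 RPKM, and NCU06034, at almost the same wild-type level, had 3.70 RPKM in Δpp-1. NCU09693 had 116 and 4.71 RPKM, NCU07523 had 148 and 7.91 RPKM, and NCU06055 had 149.8 and 8.94 RPKM. Above the gap were 7 genes, which kept 12.5% to 24.3% of their level. Beside gh76-5 they were NCU07974 (199 and 26.2 RPKM), NCU03192 (199 and 44.3 RPKM), NCU10687 (171 and 21.4 RPKM), NCU04645 (135 and 31.1 RPKM), NCU02988 (107 and 26.0 RPKM) and NCU05627 (105 and 23.2 RPKM). At 200 RPKM or more in the wild type, members likewise left a gap in Δpp-1, between 5.03 and 19.4 RPKM. Lower classes did not share it: 8 members from 50 to under 100 RPKM in the wild type had 10.0 to 17.8 RPKM in Δpp-1.

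A further 24 members stood from 50 to under 100 RPKM in the wild type, and 0 of them were listed at 0 in Δpp-1. The lowest in Δpp-1 was NCU02613, with 54.8 and 0.627 RPKM. From 1 to under 2 RPKM came NCU10610 (94.4 and 1.34 RPKM), NCU09848 (93.2 and 1.45 RPKM), NCU01382 (55.6 and 1.64 RPKM) and NCU04488 (52.6 and 1.73 RPKM), which kept 1.42% to 3.28%. The next 5 kept 4.77% to 6.45%, namely NCU09193 (86.4 and 4.12 RPKM), NCU02046 (77.1 and 4.97 RPKM), NCU09144 (61.2 and 3.24 RPKM), NCU08169 (58.3 and 3.14 RPKM) and NCU09798 (51.8 and 3.19 RPKM). Another 6 kept 9.55% to 17.3%, namely NCU03132 (74.5 and 8.997 RPKM), NCU04847 (71.7 and 6.85 RPKM), NCU11308 (63.9 and 8.85 RPKM), NCU06989 (56.6 and 9.80 RPKM), NCU04467 (52.5 and 8.26 RPKM) and NCU09422 (51.2 and 7.54 RPKM). The remaining 8 kept 15.2% to 23.3%. Beside pls-1 these were NCU09295 (80.1 and 14.3 RPKM), NCU04036 (77.4 and 17.8 RPKM), NCU05136 (73.0 and 14.1 RPKM), NCU01509 (67.4 and 12.9 RPKM), NCU07491 (65.3 and 12.9 RPKM), NCU11314 (63.9 and 13.5 RPKM) and NCU04872 (54.2 and 12.6 RPKM).

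Of 24 members from 20 to under 50 RPKM in the wild type, 2 were listed at 0 in Δpp-1 and 6 more were below 1 RPKM there. NCU08433 had 44.4 and 0.467 RPKM and NCU07827 had 39.7 and 0.447 RPKM, log2 folds of -4.95 and -4.81. The others below 1 RPKM were NCU06140 (47.0 and 0.784 RPKM), NCU09764 (35.4 and 0.877 RPKM), NCU06607 (34.5 and 0.931 RPKM) and NCU01158 (33.9 and 0.900 RPKM). These 6 kept 1.05% to 2.70% of their level. From 1 to under 2 RPKM came NCU02246 (42.5 and 1.33 RPKM), NCU02910 (28.8 and 1.26 RPKM), NCU09245 (24.0 and 1.20 RPKM) and NCU01098 (22.9 and 1.99 RPKM). Beside xr, 6 genes stood from 2 to under 5 RPKM, namely NCU04494 (44.5 and 2.25 RPKM), NCU05798 (38.7 and 2.23 RPKM), NCU05915 (35.7 and 2.49 RPKM), NCU04996 (33.7 and 4.90 RPKM), NCU09307 (32.0 and 4.78 RPKM) and NCU08367 (27.8 and 4.09 RPKM). The last 5 kept 15.1% to 23.0%, namely NCU02429 (41.9 and 9.63 RPKM), NCU01045 (41.3 and 6.24 RPKM), NCU01211 (36.8 and 8.32 RPKM), NCU06334 (34.9 and 5.56 RPKM) and NCU09294 (33.3 and 6.76 RPKM).

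The class from 10 to under 20 RPKM in the wild type held 32 members, of which 8 were listed at 0 in Δpp-1 and 10 were above 0 and below 1 RPKM. The lowest of the 10 was NCU09712, with 16.5 and 0.257 RPKM. The others were NCU05681 (19.7 and 0.729 RPKM), NCU04489 (16.7 and 0.789 RPKM), NCU03863 (16.4 and 0.904 RPKM), NCU06912 (15.9 and 0.528 RPKM), NCU06082 (15.4 and 0.879 RPKM), NCU08739 (13.6 and 0.566 RPKM), NCU01699 (12.2 and 0.472 RPKM), NCU07804 (11.97 and 0.405 RPKM) and NCU08176 (10.2 and 0.844 RPKM). They kept 1.56% to 8.27% of their level. A further 10 kept 6.47% to 16.8%, namely NCU07388 (18.4 and 1.20 RPKM), NCU05653 (18.3 and 1.18 RPKM), NCU02344 (16.6 and 1.09 RPKM), NCU06079 (14.1 and 1.10 RPKM), NCU08847 (12.9 and 1.84 RPKM), NCU10132 (12.5 and 1.99 RPKM), NCU05132 (11.9 and 1.68 RPKM), NCU06294 (11.4 and 1.33 RPKM), NCU06364 (10.4 and 1.49 RPKM) and NCU01148 (10.2 and 1.72 RPKM). Beside gh6-3, the highest in Δpp-1 were NCU07005 (19.7 and 2.71 RPKM), NCU01931 (15.5 and 2.09 RPKM) and NCU09199 (14.1 and 2.45 RPKM). Counts are small here: NCU08176 rested on about 69.9 and 6.88 reads, and the counting interval of its log2 ratio of -3.60 ran from -6.14 to -2.13.

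The 11 members listed at 0 in Δpp-1 had a median of 14.1 RPKM in the wild type. NCU00995 stood apart with 274 RPKM, rank 279 of the wild type. NCU05629 followed with 36.9 RPKM and NCU03294 with 22.3 RPKM. The other 8 were under 20 RPKM, namely NCU03247 (17.8 RPKM), NCU09525 (15.6 RPKM), NCU05750 (14.1 RPKM), NCU09755 (13.5 RPKM), NCU07353 (13.5 RPKM), NCU09953 (13.3 RPKM), NCU09756 (12.03 RPKM) and NCU05834 (10.6 RPKM). An exact 0 can be a failed estimate, and no ratio is given against it. NCU00995, NCU05750, NCU07353, NCU09525, NCU09755 and NCU09756 had more than 1 line in the files, as had 238 genes in all, and each of the 238 was at 0 in exactly 1 of the libraries. Among the 4831 genes, 0.269% were listed at 0 in Δpp-1. All of these were within the limits by construction, so this share is no background for the members.

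At the limits of the rule, the nearest genes inside and outside differed little. Just inside the fold limit were NCU02988, NCU02429 and NCU04872, of which NCU04872 had a log2 fold of -2.02. Just outside were NCU00821 (47.6 and 11.2 RPKM), the cell wall protein gene acw-9 (NCU06185, 3012 and 760 RPKM) and NCU07326 (12.4 and 2.39 RPKM), with log2 folds from -1.99 to -1.98. Just inside the level limit were NCU08176, NCU01148 and NCU06364. Just outside were NCU07798 with 9.59 RPKM, NCU07046 with 9.29 RPKM, and NCU09782 with 9.08 and 1.26 RPKM. NCU07798 and NCU07046 were both listed at 0 in Δpp-1 and had more than 1 line each.

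How many genes in all lie past 4-fold depends on how the libraries are scaled to each other. As deposited, 113 were lower and 39 higher, 74.3% of them lower, and the median gene was at -0.28. With each library scaled by its median, the counts were 99 lower and 54 higher (64.7% lower) and the median gene was at -0.02. With Δpp-1 scaled to the sum of the wild type, a choice added after seeing the data, they were 94 and 64 (59.5% lower), with the median gene at 0.13. With both libraries brought to a sum of 1000000, which also raises all levels against the added 1 RPKM and the 10 RPKM limit, they were 110 and 84 (56.7% lower). Relative to the median gene as deposited, the median member was at -2.93.

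Some members lay next to one another. Locus numbers differed by 1 between 6 of the 101 members, NCU04488 and NCU04489, NCU09294 and NCU09295, and NCU09755 and NCU09756. This is 5.94% of members, while 1.44% of the 4730 other genes that met the 10 RPKM limit had a member at such a distance. The pair NCU09755 and NCU09756 rests on listed zeros of genes with more than 1 line each, and such zeros can be failed estimates. Within 3 numbers the shares were 15.8% of members and 4.71% of other genes, and within 10 numbers 28.7% and 14.9%. In the gene order of assembly NC12, 100 members could be placed. There, 20 of the 100 had another member within 3 places, as had 5.39% of other genes. These shares are a description, and no test was made.

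The 9 locus numbers from NCU04488 to NCU04496 held 4 members. Their wild-type levels were far apart, with 377 RPKM for NCU04496, 44.5 RPKM for NCU04494, 16.7 RPKM for NCU04489 and 52.6 RPKM for NCU04488, while in Δpp-1 all 4 were between 0.386 and 2.25 RPKM. The genes between them that were measured lay outside the limits. NCU04495 had 16.3 and 10.4 RPKM, NCU04492 had 12.1 and 7.94 RPKM and NCU04491 had 35.2 and 10.96 RPKM. NCU04493 was higher in Δpp-1, with 38.1 and 63.7 RPKM.

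In a run of 4 genes that follow each other in the gene table, each was lower in Δpp-1. The run starts with NCU05834, one of the listed zeros, at 10.6 RPKM in the wild type. Next come NCU05835, with 92.5 and 23.2 RPKM, and gh47-4 (NCU05836), of a family of mannosidases that trim glycoproteins, with 83.6 and 24.5 RPKM. Their log2 folds of -1.95 and -1.73 put both outside the limits. The run ends with NCU11308, whose span overlaps that of gh47-4. Its outer neighbours were low in both libraries, NCU05833 with 3.57 and 1.96 RPKM and NCU05837 with 7.75 and 6.71 RPKM.

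Other members near each other had genes of different levels between them. NCU01699 and NCU01697 enclose NCU01698, which had 192 and 142 RPKM, log2 fold -0.43, and shares 567 bases with NCU01699. NCU05629 and NCU05627 enclose NCU05628, which had 6.01 and 0.689 RPKM, log2 fold -2.05. This gene was past the fold limit too, and only its level below 10 RPKM kept it out. The neighbours NCU09295 and NCU09294 kept 17.9% and 20.3% of their level. Also within 3 places of each other were NCU07804 and NCU07802, NCU09798 and NCU05653, and NCU06082 and NCU06079. Further members lay beside genes set aside by the rule. The cell wall protein gene ncw-1 (NCU05137, 24.99 and 5.09 RPKM) lay beside NCU05136, and gh10-3 (NCU04997, 10.03 and 0.164 RPKM), of a xylanase family, beside NCU04996. NCU01380, with 413 and 0.688 RPKM, lay 2 places from NCU01382, and NCU01381 between them had 134 and 133 RPKM.

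**Figure D3:**
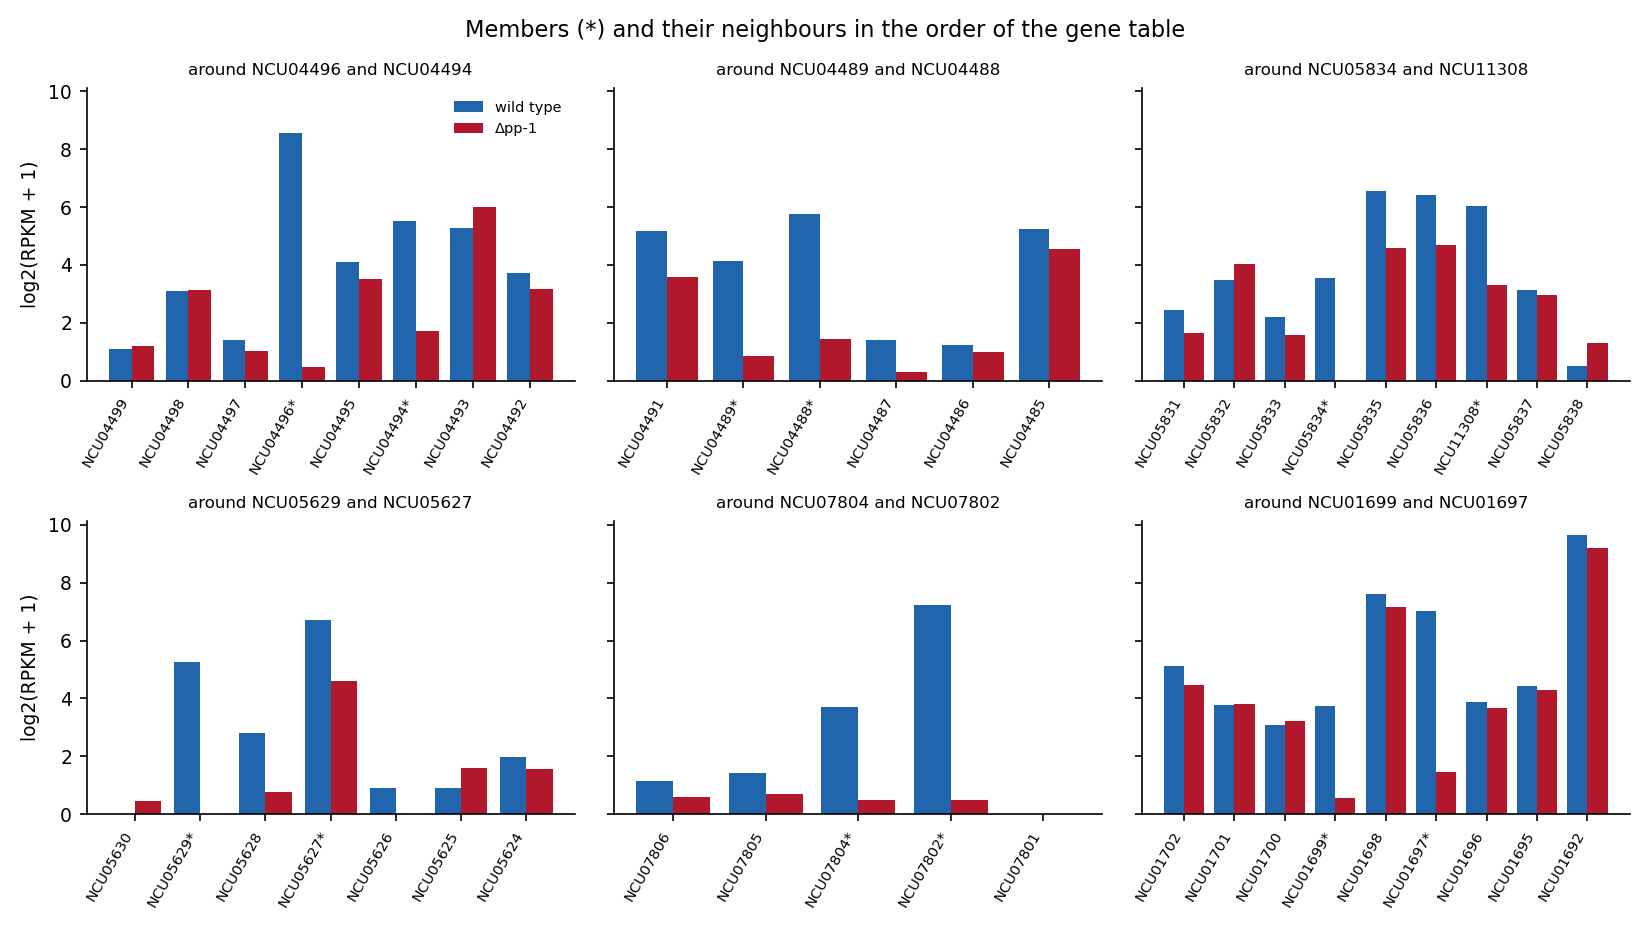
Levels as log2(RPKM + 1) in the wild type (blue) and Δpp-1 (red) for 6 pairs of members (asterisks) with the genes between them and up to 3 on either side, in the order of the gene table; genes with no value in the files are left out. Red bars of the members stand at 2.25 RPKM or less, apart from those of NCU11308 (8.85 RPKM) and NCU05627 (23.2 RPKM). Between members, those of NCU04495 and NCU01698 reach 10.4 and 142 RPKM, and that of NCU05628 0.689 RPKM. NCU04493, beside NCU04494, reaches 63.7 RPKM. The run from NCU05834 to NCU11308 is lower throughout.

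Genes beside a member but outside the limits had a median log2 fold of -0.26, the same as all genes outside the limits. Of 79 nearest neighbours that met the 10 RPKM limit, 7 (8.86%) were 2-fold or more lower in Δpp-1, and 1 was 2-fold or more higher. Among all 4718 genes outside the limits, 4.75% were that much lower and 2.8% that much higher. At 2 places from a member 7 of 85 were 2-fold lower, at 6 places 2 of 92 and at 8 places 8 of 88, so that the share did not fall steadily with distance.

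**Figure D4:**
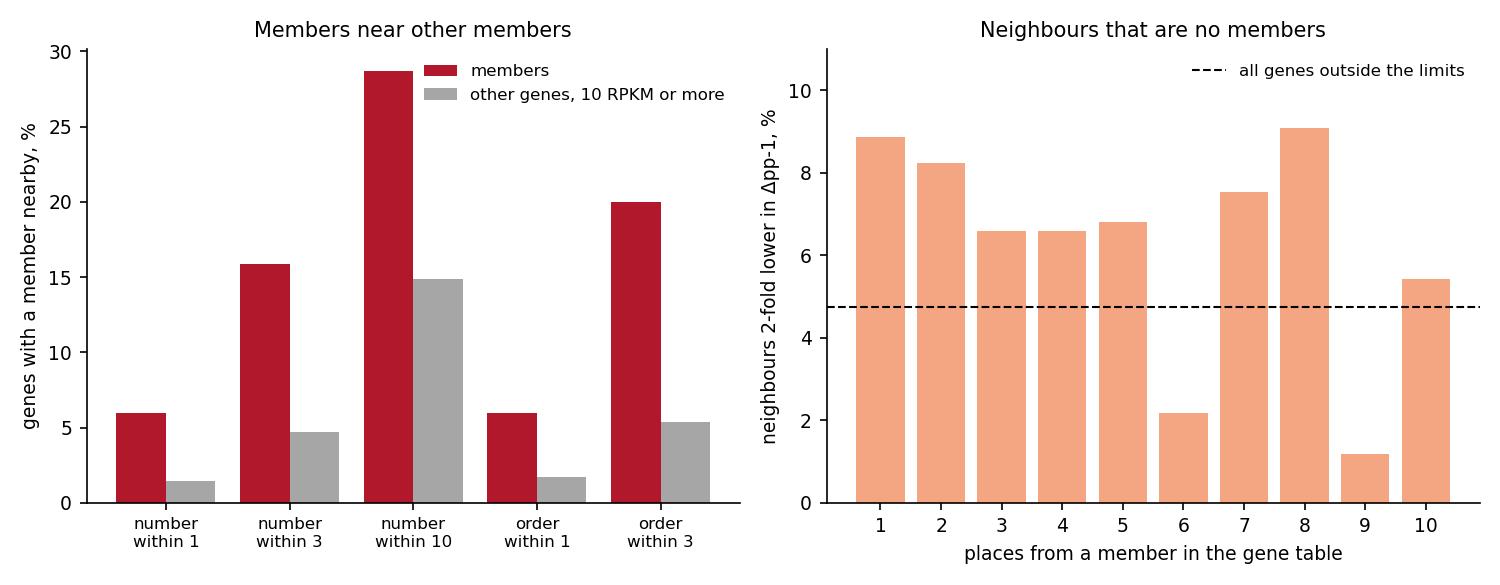
Left, share in percent of members (red) and of other genes with at least 10 RPKM in one library or the other (grey) that have another member within 1, 3 or 10 locus numbers, or within 1 or 3 places in the gene table. Right, share in percent of neighbours outside the limits that were 2-fold lower in Δpp-1, by places from a member, with a dashed line at 4.75% for all genes outside the limits; red bars are higher than grey ones at each distance, and the right-hand bars lie between 1.19% and 9.09%.

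Some members share ground with a neighbouring gene. The library steps in the labels' protocols name no strand marking, so reads in the shared part cannot be told apart. The annotated spans of 20 members overlapped that of another gene. NCU09755 and NCU09756 overlap each other by 34 bases. The span of NCU09562, the highest member, shares 1299 bases with NCU09561, which had 13.2 and 7.67 RPKM. NCU04494 shares 1267 bases with NCU04493, and NCU08367 shares 1383 bases with NCU08368, which had 12.4 and 12.9 RPKM. Of 18 overlapping genes that are no members, 1, gh47-4, was 2-fold or more lower, and their log2 folds ran from -1.73 to 0.73.

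Few members carry a symbol, 3.96% of them and 17.4% of the 4831 genes. The rule had a part in this, since 10 of the 12 genes set aside had a symbol, and with them the share was 12.4% of 113 genes. Gene spans had a median of 2156 bases for the 98 members with a span and 2440 bases for 4683 of the 4831 genes. The quartiles overlapped widely, from 1626 to 2856 bases for members and from 1823 to 3346 bases for all.

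The rule itself sets aside pp-1 and Prm1, named after a membrane protein of yeast cell fusion, which were within the limits, so the members hold neither. Other genes of the MAK-2 pathway and germling fusion were looked at from a list that does not name these. Of 27 symbols listed, which take in the MAK-2 and MAK-1 kinases, the ham genes, so, adv-1 and the pheromone genes, 25 gene models were found, ham-5 being split over a pair of them. Of 24 models that met the 10 RPKM limit, 10 were 2-fold or more lower, 1, the pheromone precursor gene ccg-4, was 2-fold or more higher, and 0 were within the limits. The shares of all 4831 genes were 6.98%, 2.73% and 2.34%. The nearest to the limit was the kinase gene mek-1 (NCU06419), with 143 and 35.8 RPKM and a log2 fold of -1.97. The median of the 24 was -0.52, beside -0.28 for all genes. NCU07388, a member with 18.4 and 1.20 RPKM, carries the locus number before that of ham-9 (NCU07389), a gene needed for germling fusion, which had 58.7 and 25.9 RPKM.

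Genes taken here as markers of conidia and aerial hyphae, which the cultures could also hold, were not among the members. Of 9 such genes 5 met the 10 RPKM limit. Of these, con-6 (8.78 and 29.5 RPKM), con-10 (11.3 and 71.3 RPKM), eas (9.55 and 29.3 RPKM) and al-1 (41.1 and 187 RPKM) were 2-fold or more higher in Δpp-1, as were 2.73% of the 4831 genes. The fifth, ccg-1, had 14.3 and 13.2 RPKM. The sum over the 9 genes was 93.3 and 337 RPKM, most of it from al-1 and con-10. Below the limit, con-8 had 3.57 and 2.91 RPKM and acon-3 had 1.83 and 0.668 RPKM. The marker con-13 had 0.313 RPKM in Δpp-1 and a listed 0 in the wild type, and fl, a regulator of conidiation, had 2.83 and 2.65 RPKM. The part of culture make-up in the levels of the members was not tested.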

How the data were processed

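Poly(A) RNA was sequenced from 1 library per strain. Per the file headers, the authors deposited RPKM values. The submitters' processing notes name TopHat and Cufflinks; versions, genome build and annotation are not given in the sources used here. Levels were used as deposited, each repeated gene taken once, with a pseudocount of 1 RPKM for log2 folds, which understates the folds of low genes. Gene names, spans and neighbours came from a RefSeq table (assembly NC12), in which 8087 of 8564 identifiers were found as current and 207 as older tags. Its starts and ends served for neighbours and overlaps and are not printed, since the authors' build is not stated, and no sequences were used.

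The worth of 1 read was estimated in RPKM times kilobases of span. It was taken as the unit with the most genes within 0.06% of 2, 3 and 4 times it. This gave 0.127 in the wild type and 0.107 in Δpp-1. Among 800 low genes 100 had a log2 ratio of 0.251, as for equal reads, and 53 that for 2 reads against 3. Spans hold introns, so reads per gene are rough. Counting intervals are exact (Clopper-Pearson) 95% intervals from 50% of these reads, the number if 1 read were 2 units, and cover counting error only.

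The members and the lists were chosen with earlier results of these data known. All members are named with their levels. Scripts were tested on simulated data and run with Python 3.11.15, pandas 2.3.3 and SciPy 1.17.1.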

Additional observations from a re-analysis of the deposited data

How the results depend on the processing

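No paired analysis was possible because the design holds a single library of each strain, and no replicate could be left out. Searches for motifs in promoters and for hydrophobic protein starts were not run, as no sequences were used here. The 101 members became 58 with a pseudocount of 5 RPKM, 64 from 30 RPKM up and 58 at 8-fold, and all of these are among the 101; they became 108 with a pseudocount of 0.1 RPKM, 126 with no filter and 145 at 3-fold. Under scaling by the median or the upper quartile 88 of the 101 stayed within the limits; with both libraries at a common sum, it was 85, and with Δpp-1 at the sum of the wild type (added after seeing the data), 83. The median log2 fold of -3.21 was -3.93 and -2.11 with pseudocounts of 0.1 and 5 RPKM, -3.08 with median scaling, -3.27 with a common sum, -3.03 with Δpp-1 at the sum of the wild type and -3.09 with the upper quartile, over the same 101 genes. Over the genes each setting admits, it was -3.01 with no filter, -3.51 from 30 RPKM up, -2.51 at 3-fold, -3.90 at 8-fold and -3.10 without genes listed at 0. Genes listed at 0 numbered 24 with no filter and 2 from 30 RPKM up, against 11. Members near another numbered 16 within 3 locus numbers and 29 within 10, against 6. The depth limits mainly the Δpp-1 values, since 8 members above 0 there rested on fewer than 10 reads.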

Other observations

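A further 25 genes were at least 4-fold lower in Δpp-1 on the same scale but stayed below 10 RPKM in the wild type. Of these, 13 were listed at 0 in Δpp-1, several of them genes with more than 1 line. Because 1 RPKM is added, the lowest genes pass the fold limit only close to 0 in Δpp-1, so nothing is read from this number. Of the 25, 24 could be placed in the gene table and 7 lay within 3 places of a member (29.2%), as did 6.16% of 3443 other placed genes below 10 RPKM in both libraries; no test was made. NCU09954 (9.08 and 0.241 RPKM) and NCU09955 (8.01 and 0.128 RPKM) carry the locus numbers after NCU09953, a member at 13.3 RPKM that was listed at 0. NCU09796 (8.27 and 0.366 RPKM) lies near NCU09798, NCU05628 between NCU05629 and NCU05627, and NCU01383 (3.16 RPKM, then listed at 0) next to NCU01382. NCU04123 (3.08 RPKM, then listed at 0) and NCU11046 (3.56 RPKM, then listed at 0), each with more than 1 line, are the others. These genes were named after their values were seen.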
